A study of Drosophila melanogaster with 18 samples.

Results

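The comparison between larvae mutant for HP1a and larvae mutant for Setdb1 rested on 6 of the 18 arrays of the series, 3 for each genotype. The HP1a mutants carried the allele pair HP1a04/HP1a05 in trans, and the Setdb1 mutants were homozygous for Setdb110.1. Levels in 6 wildtype arrays, in 3 arrays of Su(var)3-9 mutants, with the allele evo over the allele 06, and in 3 arrays of HP1a04 PofD119/HP1a05 PofD119 double mutants are given beside the comparison where they help to place a value. Each array measured total RNA from a pool of 200 whole first-instar Drosophila melanogaster larvae, collected about 48 hours after egg laying from crosses kept at 25 °C. RNA of a whole larva mixes all its tissues, so fewer cells of a type and less RNA per cell cannot be told apart. The labels do not describe the genetic background of the stocks, and each genotype is 1 stock or cross, so the effect of a mutation and that of the stock cannot be told apart.

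HP1a is a chromatin protein that binds histone H3 methylated at lysine 9, the mark of heterochromatin. Setdb1, also known as eggless, and Su(var)3-9 are enzymes that place this mark, Setdb1 above all on the small chromosome 4 and on chromosome arms, Su(var)3-9 mainly around the centromeres. HP1a is best known as a silencer, yet a number of genes that lie within pericentromeric heterochromatin need it for their normal expression. Comparing the reader of the mark with one of its writers asks which genes depend on the one and not on the other in the same way.

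Differences below are HP1a mutant minus Setdb1 mutant on the log2 scale of the array signal, with their standard error (SE), so that 1 means 2-fold. A gene is called when the adjusted p of the limma fit is under 0.05, and "higher" or "lower" means in the HP1a mutants relative to the Setdb1 mutants. Of 8211 genes tested, 693 were higher and 824 were lower, which is 8.44% and 10.0% of the genes tested and 18.5% together. A change of at least 2-fold was found for 76 of the higher and 112 of the lower genes. The 3 HP1a arrays did not overlap the 3 Setdb1 arrays for 632 of the 693 higher and 765 of the 824 lower genes. A called gene tends to separate in this way, so these counts are no support apart from the calls. The share over all tested genes is not given here. Without Setdb1 array B, 344 genes were higher and 475 lower, and without HP1a array A 367 were higher. With the array letter as a block, 551 were higher and 457 lower. This pairing was inferred from these data, in which arrays of the same letter deviated together. The labels do not say what a letter stands for. The median difference over all genes was 0.02.

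**Figure D1:**
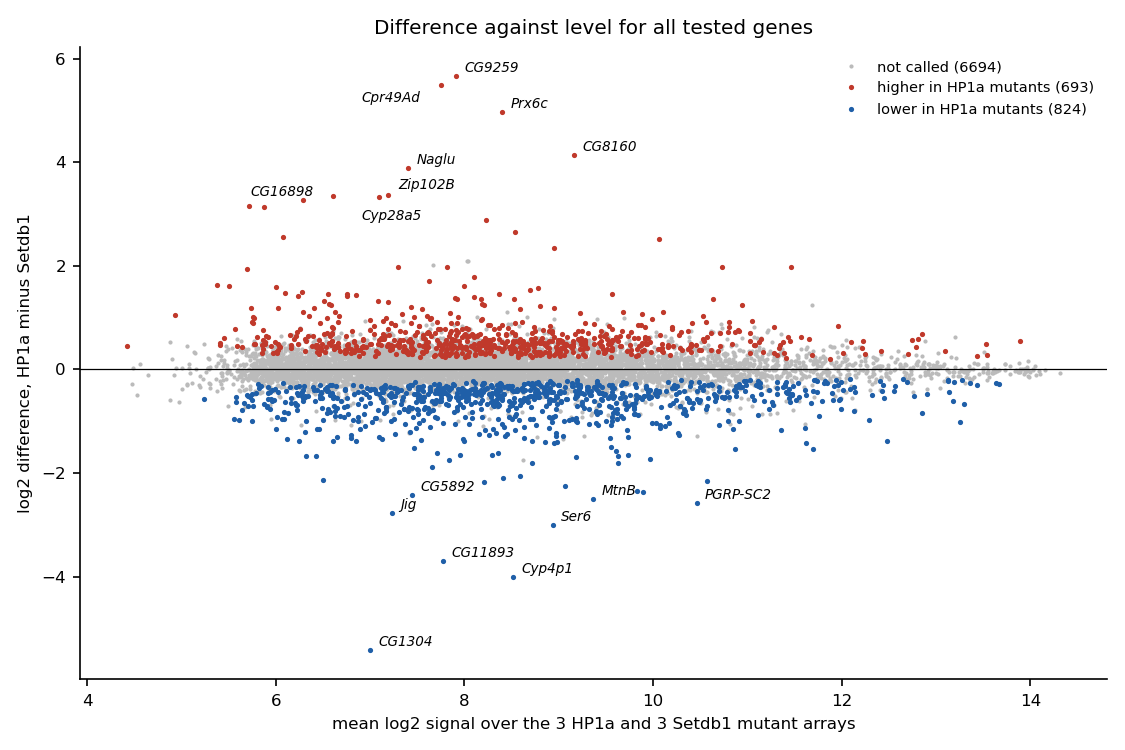
Each point is 1 of the 8211 tested genes, placed by its mean log2 signal over the 6 arrays (horizontal) and its log2 difference, HP1a minus Setdb1 (vertical); red genes were called higher, blue genes lower and grey genes were not called. Most called genes differ by less than 1, and the 8 largest differences in each direction are named.

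The signal of the HP1a gene itself could check the HP1a label only. It was 9.53, 9.40 and 9.52 on HP1a arrays A to C and 9.95, 10.23 and 10.22 on the Setdb1 arrays. All HP1a arrays were thus below all Setdb1 arrays, with a difference of -0.65 ± 0.08 (SE; adjusted p = 3.65e-05), and the Setdb1 mean of 10.13 ± 0.15 (SD, n = 3) was close to the wildtype mean of 10.20 ± 0.05 (SD, n = 6). The probe set still detected the transcript in HP1a mutants, and whether it lies within the part the alleles change is not known here. The HP1a gene cannot tell Setdb1 mutants from wildtype or from Su(var)3-9 mutants, at a mean of 10.11. Nor can it tell HP1a mutants from the double mutants, at 9.53. The Setdb1 and Su(var)3-9 genes were not analysed here, so the Setdb1 label was not checked. Pof, whose protein coats chromosome 4 and which is intact in both genotypes, differed by 0.06 ± 0.21 (adjusted p = 0.865).

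The arrays of a genotype correlated with each other at 0.962 to 0.978 (HP1a) and 0.972 to 0.981 (Setdb1), and across the genotypes at 0.929 to 0.974. The signal of control transcripts near their 3′ end minus that near their 5′ end, a measure of RNA integrity and labelling, was 1.91, 1.41 and 1.61 in HP1a mutants and 1.16, 1.33 and 1.27 in Setdb1 mutants, so it separated the genotypes. Setdb1 array B stood apart in its 18S ribosomal RNA signal of 11.11, against 8.95 to 9.69 on the other Setdb1 arrays and 9.22 to 9.60 on the HP1a arrays.

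Several of the genes that separated the genotypes most had a signal near background in one of them. The largest difference belonged to CG9259, a member of the ecdysteroid kinase-like (EcKL) family by its RefSeq synonym. Its signal was 10.44, 10.79 and 11.02 in HP1a mutants and 4.89, 4.99 and 5.36 in Setdb1 mutants, a log2 difference of 5.67 ± 0.17 (adjusted p = 1.47e-12). The Setdb1 signals were under 6, the level of the filter, where array signal is near background and differences are compressed, which holds for every mean under 6 below, so no fold is given. Setdb1 mutants were near the wildtype mean of 4.65, while the Su(var)3-9 mutants, at 10.16, and the double mutants, at 10.34, were near the HP1a mutants. The cuticle protein gene Cpr49Ad had the same order: 10.56, 10.32 and 10.60 in HP1a mutants, 4.82, 4.81 and 5.39 in Setdb1 mutants and a mean of 5.15 in wildtype. In both genes the Setdb1 mutants resembled wildtype and the 3 other mutant groups did not.

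In a second kind of gene the Setdb1 mutants had the lowest of the 5 group means. Prx6c, a peroxiredoxin that removes peroxides, gave 11.22, 10.32 and 11.10 in HP1a mutants and 6.20, 5.36 and 6.19 in Setdb1 mutants, a difference of 4.96 ± 0.23 (adjusted p = 2.98e-10); wildtype had 11.66. CG8160 gave 11.65, 11.15 and 10.88 against 8.10, 6.88 and 6.32, with 12.21 in wildtype. The HP1a arrays lay far above the Setdb1 arrays in both genes, and their means differed from wildtype by -0.78 and -0.98. Zip102B on chromosome 4, a zinc transporter gene of the ZIP family, gave 8.98, 8.90 and 8.73 against 5.39, 5.47 and 5.68, with 9.46 in wildtype, 8.64 in the double mutants and 8.82 in Su(var)3-9 mutants. Its difference of 3.36 ± 0.09 (adjusted p = 1.05e-12) was by far the largest on chromosome 4. The C-type lectin gene lectin-24A (difference 3.27), and the EcKL genes CG16898 (3.35) and CG13658 (3.14), were likewise under 5 in Setdb1 mutants and above 9.5 in wildtype, with HP1a mutants in between at means of 7.92, 8.28 and 7.45. In CG16898 the double mutants, at 5.92, were closer to the Setdb1 mutants.

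In Naglu, cn and CG6738 the HP1a mutants lay above wildtype. Naglu, a lysosomal N-acetylglucosaminidase, gave 9.42, 9.28 and 9.34 in HP1a mutants, 5.69, 5.67 and 5.04 in Setdb1 mutants and a mean of 7.28 in wildtype, so the genotypes lay on opposite sides of wildtype. The kynurenine monooxygenase gene cn, which acts in eye pigment synthesis, was at 7.33, 7.15 and 7.42 in HP1a mutants and 3.87, 4.35 and 4.21 in Setdb1 mutants, near the wildtype mean of 3.67. CG6738 followed the same order (difference 2.56, wildtype mean 4.91). CG32071 differed by 2.34 ± 0.38. CG15741 (2.51 ± 0.69, adjusted p = 0.0206) varied most within genotypes, from 10.63 to 12.32 and from 7.54 to 10.32, and lost its call without HP1a array C or without Setdb1 array A or B. Of the 76 genes at least 2-fold higher, 29 had a Setdb1 mean under 6.

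The largest differences in the other direction were led by a secreted protease gene. CG1304, a serine protease gene, gave 4.04, 4.70 and 4.13 in HP1a mutants and 9.82, 9.94 and 9.38 in Setdb1 mutants, with the HP1a signals near background (difference -5.43 ± 0.22, adjusted p = 5.19e-11). Wildtype, at 4.37, was with the HP1a mutants, and Su(var)3-9 mutants, at 9.32, were with the Setdb1 mutants. Its neighbour on the X chromosome, the serine protease gene Ser6, gave 7.44, 7.21 and 7.66 against 10.27, 10.62 and 10.42, with 9.32 in wildtype (difference -3.0 ± 0.13). The neighbours moved the same way, and both were picked by a rule that required non-overlapping arrays.

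Cyp4p1, a cytochrome P450 gene, was at 6.61, 6.52 and 6.39 in HP1a mutants and 10.81, 10.30 and 10.43 in Setdb1 mutants (difference -4.01 ± 0.14, adjusted p = 7.85e-12). Wildtype was at 11.24 and the double mutants at 6.87, so the level was low in both groups with mutant HP1a. The EcKL gene CG11893 gave 5.50, 6.30 and 5.99 against 9.54, 9.75 and 9.58, with wildtype at 10.68 and the double mutants at 6.73. PGRP-SC2, a secreted amidase that degrades bacterial peptidoglycan in the gut, gave 9.24, 9.25 and 9.02 against 11.79, 11.83 and 11.64, with wildtype at 12.60. Relative to wildtype these 3 genes differed by -3.43 to -4.75 in HP1a mutants and by -0.73 to -1.06 in Setdb1 mutants.

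MtnB, a metallothionein that binds metal ions, was 8.73, 7.75 and 7.84 in HP1a mutants and 11.17, 10.50 and 10.19 in Setdb1 mutants, the highest of the 5 group means, with wildtype at 7.40. Jig also had the highest of the 5 group means in Setdb1 mutants, at 7.55, 8.51 and 9.80, while HP1a mutants gave 6.0, 5.60 and 5.91 and the wildtype mean was 5.28. CG5892, CG6839, CG14120, CG4362, CG7631, the chitinase-family gene Cht9, the serpin gene Spn47C and the alpha-mannosidase gene LManVI completed the 15 largest negative differences, with -2.09 to -2.42. Of the 15 largest differences in each direction among called genes with non-overlapping arrays, CG15741 was the one that lost its call under any of the 15 alternatives in which it was tested.

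**Figure D2:**
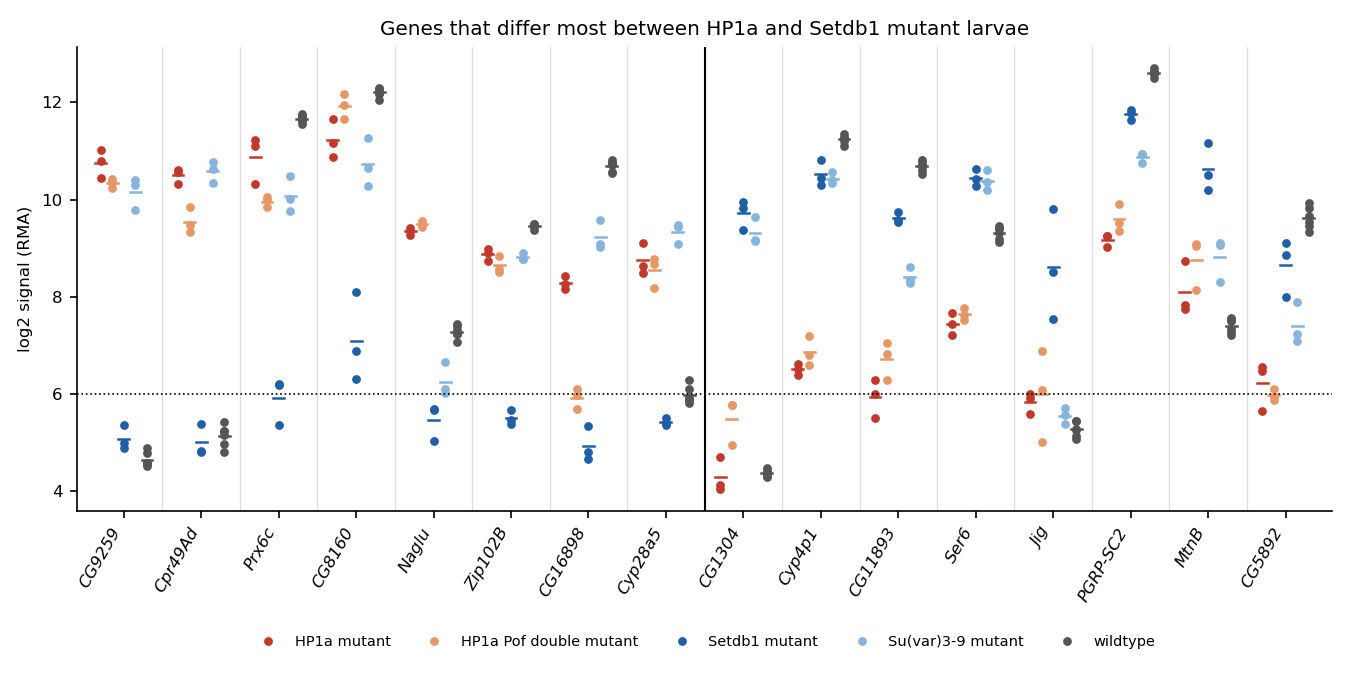
Log2 signal (vertical) of the 8 genes with the largest positive difference (left of the black line) and the 8 with the largest negative difference (right), 1 point per array, colours for the 5 genotypes and short bars for group means; the dotted line is the filter level of 6. The HP1a and Setdb1 arrays do not overlap in any of the 16 genes because the rule that picked them required it. The wildtype level lies near the HP1a mutants for some genes and near the Setdb1 mutants for others.

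By function, the list with the highest share of lower genes among those with at least 10 tested members was that of digestive proteases. Of 24 tested serine protease genes of the gut, trypsins and Jonah proteases that digest food protein, 14 were lower and 3 higher, and the median difference was -0.42 against 0.02 over all genes. Relative to wildtype their median was -1.24 in HP1a mutants and -0.81 in Setdb1 mutants, though single members differed: betaTry lay above wildtype in both genotypes, at means of 13.03 and 12.46 against 11.39. The mean signal of the 24 genes was 11.14, 11.33 and 11.47 on HP1a arrays A to C and 11.84, 11.93 and 11.62 on Setdb1 arrays A to C, which did not overlap, while wildtype arrays had 12.42 to 12.59. The number called lower was 9 without HP1a array A, 9 without Setdb1 array B and 8 with the letter as a block, under which 1 member was higher. It was 4 with the 2 genotypes fitted alone, where no member was higher.

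The trypsin gene iotaTry gave 6.94, 6.89 and 7.03 in HP1a mutants and 8.78, 8.98 and 8.36 in Setdb1 mutants (difference -1.75 ± 0.22, adjusted p = 5.99e-05). The neighbouring trypsin genes kappaTry (-1.28 ± 0.15) and lambdaTry (-1.16 ± 0.21) were lower together, with HP1a means of 7.79 and 9.14 against wildtype means of 10.23 and 11.55. The 3 members that were higher were betaTry, Jon25Bi and Jon74E, named after their values were seen because they go against the others; betaTry (adjusted p = 0.0912) and Jon74E (0.0847) were not called with the block. Of 7 gut markers 5 were tested, with a median of 0.50. Among them betaTry (0.57) and the lipase gene mag (1.36) were higher and Jon65Aiii (-0.29, adjusted p = 0.116 with the block) was lower. In limma alphaTry (0.16, adjusted p = 0.560) and Mal-A1 (0.50, adjusted p = 0.328) were not called. The called markers are themselves members of the lists of digestive enzymes described here and below. The marker set is thus no evidence apart from those lists. The mean of the 5 markers was 11.39 to 11.48 on the HP1a arrays and 10.69 to 11.43 on the Setdb1 arrays, so the genotypes overlapped, with 11.68 to 11.87 in wildtype.

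Carbohydrate and lipid digestion went both ways. Of 19 amylases, maltases, mannosidases and lipases tested, 8 were lower and 4 higher (median -0.40). The adjacent mannosidase genes LManV, at 7.44, 7.52 and 7.73 against 9.80, 9.73 and 9.31 (difference -2.05 ± 0.20), and LManVI (-2.09 ± 0.39) were lower. The glucosidase gene tobi, a target of adipokinetic hormone and insulin signalling, was higher at 7.10, 6.19 and 5.64 against 5.03, 4.55 and 4.54 (1.61 ± 0.34, adjusted p = 0.00405), and the maltase gene Mal-A6 was higher by 1.40 ± 0.39. Without HP1a array A or Setdb1 array B the higher members numbered 2. They numbered 1 with the 2 genotypes fitted alone, where 4 members were lower. Pepck2, an enzyme of the gluconeogenic reaction, was higher by 1.71 ± 0.31, while the sugar-responsive transcription factor gene sug (-0.76), the adipokinetic hormone receptor gene AkhR (-0.62) and bigmax (-0.53), a partner of the sugar sensor Mondo, were lower. In all, 3 of 27 insulin, lipid and nutrient genes were higher and 6 lower. The 6 became 3 without HP1a array A, 2 without Setdb1 array B and 3 with the block, under which bigmax was no longer called (adjusted p = 0.0568). Only 1 member was lower and 1 higher with the 2 genotypes fitted alone.

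**Figure D3:**
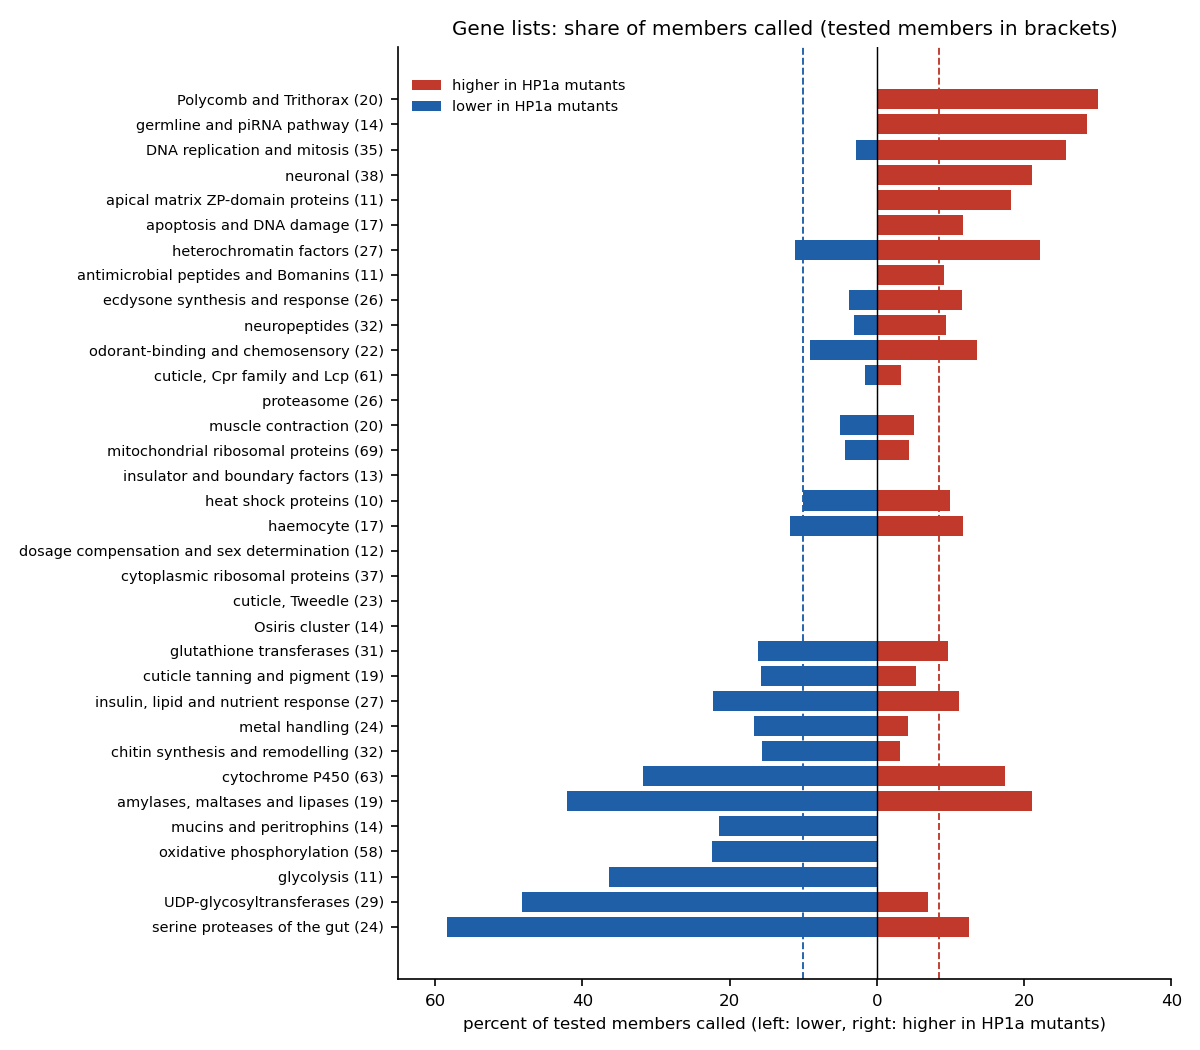
For each gene list with at least 10 tested members (number in brackets), bars give the percent of members called higher (red, right) and lower (blue, left) in HP1a mutants; dashed lines mark the share among all tested genes, 8.44% and 10.0%. Digestive and detoxification enzymes lie at the lower end with up to 58.3% of members called lower, and Polycomb and Trithorax genes at the upper end with 30.0% called higher.

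Detoxification enzymes, which oxidise or conjugate plant compounds and other small molecules, were the next large group. Of 29 UDP-glycosyltransferases tested, 14 were lower and 2 higher, with a median difference of -0.43. Their median relative to wildtype was -0.82 in HP1a mutants and -0.42 in Setdb1 mutants. Ugt35E2 gave 6.54, 6.37 and 6.42 against 8.46, 7.52 and 7.25 (difference -1.30 ± 0.21), Ugt49B2 differed by -1.14, Ugt35E1 by -0.99 and Ugt303B1 by -0.96. The mean level of the list was 7.11, 7.26 and 7.19 on the HP1a arrays and 7.74, 7.63 and 7.48 on the Setdb1 arrays, without overlap, and 11 to 14 members were called lower when any 1 array was left out. The 2 higher calls became 0 without Setdb1 array B and 1 with the block, without Setdb1 array C or without any 1 of the HP1a arrays. With the 2 genotypes fitted alone 6 members were lower and 0 higher.

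Of 63 cytochrome P450 genes, 20 were lower and 11 higher, so both directions exceeded the shares over all genes while the median moved by only -0.13. Cyp28a5 gave 9.12, 8.64 and 8.50 in HP1a mutants and 5.36, 5.41 and 5.52 in Setdb1 mutants (difference 3.32 ± 0.18), close to the wildtype mean of 5.99. Cyp28d2 of the same family differed by 2.88 and Cyp6a2, known for its part in insecticide resistance, by 1.97 ± 0.13 (8.81, 8.99 and 8.61 against 7.05, 6.83 and 6.62, with 10.83 in wildtype). Cyp4p1 lay on the opposite side from its direct neighbours Cyp4p2 (1.18) and Cyp4p3 (1.17). The lower members numbered 12 without Setdb1 array B, 13 without HP1a array A and 5 with the 2 genotypes fitted alone, where 7 were higher.

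Of 31 glutathione transferases, 5 were lower (16.1%) and 3 higher (9.68%), against 10.0% and 8.44% over all genes. The higher share was thus near that of all genes. GstE5, at 8.68, 9.06 and 8.98 against 10.79, 10.46 and 10.42 (difference -1.65 ± 0.15), and its relatives GstD3 (-1.02) and GstD2 (-1.0) were lower, while GstD5 was higher by 0.90. The 3 higher became 1 without HP1a array B, Setdb1 array B or Setdb1 array C and with the block, and 5 without HP1a array A. They became 0 with the 2 genotypes fitted alone, where 4 were lower. Among 24 metal-handling genes, 4 were lower and 1 higher: besides MtnB and Zip102B, the zinc transporter genes Zip99C and ZnT41F differed by -0.60 and -0.37, and the latter was not called with the block (adjusted p = 0.0553). The 4 lower became 2 with the block and 6 without Setdb1 array C. Immune genes differed in single members. The antifungal peptide gene Drs gave 8.73, 7.12 and 6.60 against 6.07, 6.07 and 5.92 (1.46 ± 0.41, adjusted p = 0.0220), the 1 call among 11 antimicrobial peptide genes, and it was lost without HP1a array A, without Setdb1 array B and with the block (adjusted p = 0.0638). Of 8 peptidoglycan and glucan recognition genes, GNBP3 was higher by 0.46, and PGRP-SC2 and GNBP2 (-0.40, adjusted p = 0.0742 with the block) were lower.

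Some genes of energy metabolism were lower, by small amounts. Of 58 genes of oxidative phosphorylation, 13 were lower and none higher, with a median of -0.12, and of 11 glycolysis genes 4 were lower, with a median of -0.06. ND-13A, a subunit of respiratory complex I, gave 11.51, 11.56 and 11.49 against 11.98, 11.99 and 11.92 (difference -0.44 ± 0.06, adjusted p = 9.88e-05), and its fellow subunit genes ND-B14.5A, ND-13B and ND-39 differed by -0.38, -0.34 and -0.33. Pgi, which converts glucose phosphate to fructose phosphate, differed by -0.49 ± 0.08, and Gapdh1, Gpdh1 and Pgk by -0.25, -0.26 and -0.26. Each same-letter pair of arrays had the lower mean over the 58 genes in the HP1a mutants, with differences of -0.10 to -0.12. At an unadjusted p under 0.05, limma had 1 of the 58 genes higher and 24 lower.

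The calls depended on single arrays more than the differences did, since the median over the 58 genes was -0.10 to -0.15 when any 1 array was left out. The 13 became 4 without Setdb1 array B, 5 without Setdb1 array A, 5 without HP1a array C, 7 without HP1a array A, and 1 with the letter as a block, under which 1 glycolysis gene was called. With quantile normalization or with no filter they numbered 8. Fitting the 2 genotypes alone left 1 call among the 58 genes and no call among the glycolysis genes. Under the block ND-13A (adjusted p = 0.0383) and Pgi (0.0314) kept their calls, while ND-B14.5A (0.0591), ND-13B (0.0640), ND-39 (0.0713), Gpdh1 (0.113), Pgk (0.134) and Gapdh1 (0.131) did not. None of 37 cytoplasmic ribosomal protein genes and none of 26 proteasome genes were called in limma, with medians of -0.02 and -0.02 and with 4 of the ribosomal genes (1 higher, 3 lower) and 3 of the proteasome genes (2 higher, 1 lower) at an unadjusted p under 0.05.

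Of 61 tested genes of the Cpr and Lcp cuticle protein families, 2 were higher and 1 lower, although their median lay 1.75 above wildtype in HP1a mutants and 1.71 above it in Setdb1 mutants. The 3 called genes were Cpr49Ad, its direct neighbour Cpr49Ac, which had 9.06, 10.54 and 9.37 against 10.65, 11.16 and 10.25 (difference -1.03 ± 0.30, lost without HP1a array A or C or Setdb1 array B), and Cpr73D (0.43 ± 0.13, adjusted p = 0.0813 with the block). The list had 1 call without HP1a array A, HP1a array C or Setdb1 array B. Cpr49Ac and Cpr73D did not share the median's direction, with both mutant means under those of wildtype (11.04 for Cpr49Ac). None of 23 Tweedle cuticle genes and none of 14 Osiris genes were called in limma, with medians of -0.47 and -0.38 and with 3 Tweedle genes and 0 Osiris genes at an unadjusted p under 0.05. Without HP1a array A the medians were -0.15 and -0.0009, and without HP1a array B 2 Osiris genes were lower. With the block 1 Tweedle gene was higher and 1 lower, and without HP1a array C 1 was lower. The spread of these lists among arrays of a genotype was wide: the Osiris mean ranged from 8.67 to 10.44 on the HP1a arrays alone.

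Of 32 chitin genes, 5 were lower (15.6%, against 10.0% over all genes) and 1 higher, with a median of -0.04. Cht9 gave 9.26, 9.22 and 10.01 against 11.99, 11.73 and 11.20 (difference -2.15 ± 0.24), Idgf5 differed by -0.93, Cht4 by -0.81, and Cht10, a gene within the pericentromeric part of 2L, by -0.99 ± 0.29, a call lost without HP1a array A or C or Setdb1 array B. The 5 became 3 without HP1a array A or Setdb1 array B and 2 with the 2 genotypes fitted alone. Of 11 tested genes for zona pellucida proteins of the apical matrix, neo was higher at 10.87, 11.84 and 11.21 against 9.59, 10.41 and 9.87 (1.35 ± 0.35, lost without HP1a array B or Setdb1 array A) and pio was higher by 0.58. Among tanning and pigment genes, besides cn, yellow-d (-0.84), stw (-1.03) and yellow-f2 (-0.35, adjusted p = 0.0749 with the block) were lower, and the list had 1 lower call without HP1a array A or Setdb1 array B.

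On the higher side, lists of chromatin, cell division and neuronal genes had more members higher than lower, by small amounts. Of 20 Polycomb and Trithorax genes, which keep developmental genes off or on, 6 were higher and none lower in limma (11 and 0 at an unadjusted p under 0.05), with a median of 0.33. Pcl gave 8.41, 8.48 and 8.17 against 7.85, 7.56 and 7.58 (difference 0.69 ± 0.15, adjusted p = 0.00590), and Psc, brm and mor, subunits of Polycomb and Brahma complexes, were higher by 0.56, 0.50 and 0.44. Psc and mor were not called with the block (adjusted p = 0.0558 and 0.0539). The 6 became 2 without HP1a array A, 3 without Setdb1 array B and 1 with the 2 genotypes fitted alone.

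Of 35 genes of DNA replication and mitosis, 9 were higher and 1 lower (median 0.29). Mcm3, a subunit of the replicative helicase, gave 8.33, 8.22 and 8.09 against 7.74, 7.47 and 7.79 (0.55 ± 0.12), and the clamp loader gene RfC4 differed by 0.52, the licensing factor gene dup by 0.55 and the ribonucleotide reductase gene RnrL by 0.51. With the block, Mcm3 and RfC4 were called and dup (adjusted p = 0.0665) and RnrL (0.109) were not. The mean of the 35 genes was 7.55 to 7.62 on the HP1a arrays and 7.25 to 7.35 on the Setdb1 arrays, without overlap. The 9 became 4 without HP1a array A, HP1a array B or Setdb1 array B, 6 without Setdb1 array C, and 4 with the block. No member was called with the 2 genotypes fitted alone.

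Of 38 neuronal genes, 8 were higher and none lower in limma (15 and 2 at an unadjusted p under 0.05), and the median was 0.42. The RNA-binding protein gene elav, a marker of all neurons, gave 10.41, 9.86 and 9.86 against 9.45, 9.26 and 9.17 (0.75 ± 0.20, adjusted p = 0.0198), with 9.21 in wildtype and 10.39 in the double mutants. The potassium channel gene Sh differed by 0.85, the microtubule-associated protein gene futsch by 0.74 and the synaptic adhesion gene Nrx-1 by 0.72. Arrays of a genotype spread as widely as the genotypes differed: the mean of the 38 genes was 8.47, 8.16 and 7.96 on HP1a arrays A to C and 8.09, 7.73 and 7.62 on Setdb1 arrays A to C, so the groups overlapped, while each same-letter pair differed by 0.34 to 0.42. With the block 15 members were higher. The 8 became 2 without Setdb1 array B, 3 without HP1a array A, 4 without HP1a array B, 4 without Setdb1 array C and 12 without Setdb1 array A. Only 1 member was called with the 2 genotypes fitted alone.

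The 5 tested markers of neurons had array means of 7.68 to 7.96 in HP1a mutants and 7.24 to 7.68 in Setdb1 mutants, which met at 7.68, against 6.93 to 7.12 in wildtype. Of these markers only elav was called in limma. The others were nSyb (0.12, adjusted p = 0.649), brp (0.42, adjusted p = 0.136), VAChT (0.53, adjusted p = 0.216) and VGlut (0.12, adjusted p = 0.584). Neither the haemocyte markers (6 of 7 tested) nor those of epidermis and trachea (4 of 4) had a call in limma (1 and 0 at an unadjusted p under 0.05), and the germline markers vas, bam and zpg were below the filter. From the germline and piRNA list, armi (0.64 ± 0.10), aub (0.53), Phf7 (0.40) and shu (0.40), were called higher among 14 tested genes, of which Phf7 (adjusted p = 0.0749) and shu (0.0642) were not called with the block. Without Setdb1 array B 2 were called, and 1 was called with the 2 genotypes fitted alone.

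Hormone and secretion genes were called singly. The insulin-like peptide gene Ilp2 was higher, at 8.51, 8.47 and 8.43 against 7.88, 8.03 and 8.05 (0.49 ± 0.10, adjusted p = 0.00353), as were the eclosion hormone gene Eh (0.78 ± 0.19) and ITP (0.38, adjusted p = 0.0520 with the block), while CCHa2 was lower (-0.50, adjusted p = 0.211 with the block). Of 26 ecdysone genes, br, Eip63E and mld were higher by 0.85, 0.55 and 0.40 and shd, the last enzyme of ecdysone activation, was lower (-0.54). With the block mld (adjusted p = 0.0710) and shd (0.137) lost their calls. The higher ecdysone genes numbered 1 without HP1a array A or Setdb1 array C, and the higher neuropeptide genes 6 without Setdb1 array A against 3 with all arrays. The salivary gland gene ng1 differed by 2.65 ± 0.82, from arrays that ranged from 7.99 to 11.21 and from 5.18 to 8.40 and so overlapped; it was not called without HP1a array B or C or Setdb1 array A, nor with the 2 genotypes alone.

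The remaining lists held few calls, beside 8.44% higher and 10.0% lower over all genes. The haemocyte list, with 11.8% each way, was near those shares. Of 17 haemocyte genes, the collagen genes Col4a1 (0.35) and vkg (0.30), which build basement membranes, were higher, and the scavenger receptor gene crq (-0.78) and NimB3 (-0.72) were lower; with the block Col4a1 (adjusted p = 0.0660), vkg (0.0869) and crq (0.0755) were not called. Of 6 fat body genes, Obp99a was higher at 11.35, 11.06 and 11.05 against 10.42, 10.51 and 10.37 (0.72 ± 0.09, adjusted p = 5.62e-05), as was Apoltp (0.32, adjusted p = 0.0838 with the block), a lipid transfer lipoprotein. Among 22 odorant-binding and chemosensory genes, 3 were higher, Obp99a and Obp56b (0.55) included, and Obp56c (-1.15) and Obp19d (-0.56) were lower; Obp19d (adjusted p = 0.0495) kept its call under 3 of 15 alternatives.

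Of 20 muscle genes, the nesprin gene Msp300 was higher (0.90 ± 0.17), though another of its probe sets had the opposite sign, and the actin gene Act87E lower (-0.61 ± 0.11). Of 10 heat shock genes, Hsp27 was higher (0.69) and the cochaperone gene Hsc20 lower (-0.43). Of 69 mitochondrial ribosomal protein genes, 3 were higher, mRpL45 (0.55), mRpL48 (0.36) and mRpS31 (0.33), and 3 lower, among them mRpS5 (-0.51), which lies in the pericentromeric part of 3L. With the block mRpL48 (adjusted p = 0.117) and mRpS31 (0.0771) were not called. The mucin genes Muc68Ca (-0.68), Mur29B (-0.37) and Muc11A (-0.37) were lower among 14 tested. With the block their adjusted p were 0.0655, 0.0793 and 0.0652, and the list had no lower call without HP1a array A or Setdb1 array B. The homeotic gene Antp was higher (0.56 ± 0.17) among 8 Hox and segmentation genes, a call kept under 8 of 15 alternatives. None of 7 testis genes, 6 yolk and chorion genes or 2 lysozyme genes was called in limma, with 1, 1 and 1 of them at an unadjusted p under 0.05, and no Turandot gene passed the filter.

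Of 27 genes for heterochromatin factors, 6 were higher (22.2%) and 3 lower (11.1%), against 8.44% and 10.0% over all genes. The lower share was thus near that of all genes. The lower genes were the HP1a gene, Dcr-2 (-0.33, adjusted p = 0.109 with the block) and wde. The product of wde, windei, is a cofactor of Setdb1, and its signal was 8.32, 8.25 and 8.09 in HP1a mutants and 9.15, 9.11 and 9.24 in Setdb1 mutants (difference -0.95 ± 0.10, adjusted p = 1.37e-05). The wildtype mean was 8.20, so it was the Setdb1 mutants that lay above wildtype, by 0.97. HDAC1, HP4, D1, Su(z)12, Kdm4A and ball were higher by 0.33 to 0.51, and D1 (adjusted p = 0.0644), Kdm4A (0.0779) and ball (0.0966) were not called with the block. The 6 became 2 without Setdb1 array B, 3 with the block and 0 with the 2 genotypes fitted alone, where 2 were lower. The DNA repair nuclease gene mre11 had a much larger difference, at 8.91, 8.69 and 8.80 against 7.15, 7.43 and 6.99 (1.61 ± 0.10, adjusted p = 1.02e-08), with the Setdb1 mutants at the wildtype level of 7.16. The repair gene Ku80 was higher by 0.46. They were the 2 calls among 17 apoptosis and DNA damage genes (11.8%, against 8.44% higher over all genes). None of 13 insulator genes and none of 12 dosage compensation and sex determination genes were called in limma, with 2 and 4 genes at an unadjusted p under 0.05.

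The position of genes separated the genotypes too. Of 137 tested genes in the pericentromeric regions, 27 were lower and 9 higher in HP1a mutants, that is 19.7% lower against 9.94% of the genes on the rest of the arms. Of the 27, all but 1 had non-overlapping arrays, 26 had an HP1a mean under that of wildtype and 18 a Setdb1 mean under it, and in 22 the Setdb1 mean was the nearer to wildtype. The 27 were picked as lower in HP1a mutants, which by itself favours these counts. Among all 824 lower genes 765 had non-overlapping arrays, and the counts against wildtype are not given for them. The share of lower genes among pericentromeric genes differed among arms: 11 of 28 were lower on 2R, 7 of 22 on 3L and 5 of 21 on 2L, but 1 of 44 on 3R and 3 of 22 on X, where 3 others were higher. The mean level of pericentromeric genes minus that of other arm genes was 0.41, 0.32 and 0.39 on HP1a arrays and 0.50, 0.55 and 0.58 on Setdb1 arrays, without overlap, with wildtype at 0.41 to 0.51. The lower genes numbered 22 to 29 when any 1 array was left out and 17 with the block, and the higher genes fell to 2 without HP1a array A, 4 without Setdb1 array B, 4 without Setdb1 array C and 4 with the block.

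CG40160, a serine protease homologue gene on 3L, gave 8.26, 7.58 and 7.61 in HP1a mutants and 9.71, 9.53 and 9.63 in Setdb1 mutants, with 10.43 in wildtype (difference -1.81 ± 0.18, adjusted p = 4.09e-06). Yeti on 2R, which encodes a chromatin protein needed for viability, gave 10.90, 10.58 and 10.83 against 11.80, 11.99 and 12.03 (-1.17 ± 0.11), and wildtype, at 11.31, lay between the genotypes. Its direct neighbour CG40191 gave 9.44, 9.58 and 9.54 against 10.43, 10.55 and 10.66 (-1.03 ± 0.09), again with wildtype between them. Stlk, a kinase-like gene of 2R, differed by -1.04 ± 0.16, and CG40298 on 3L by -1.39 ± 0.29 (adjusted p = 0.0605 with the block). The light gene lt of 2L, chosen after its value was seen because it is the classical gene that needs heterochromatin, was lower by a small amount (-0.35, adjusted p = 0.0167, and 0.101 with the block). The largest positive value was that of a ribosomal RNA pseudogene on X, 18SrRNA-Psi:CR41602 (1.60 ± 0.18), whose probe set, like those of CG40160 and CG40191, has a suffix that marks probes shared among several transcripts.

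**Figure D4:**
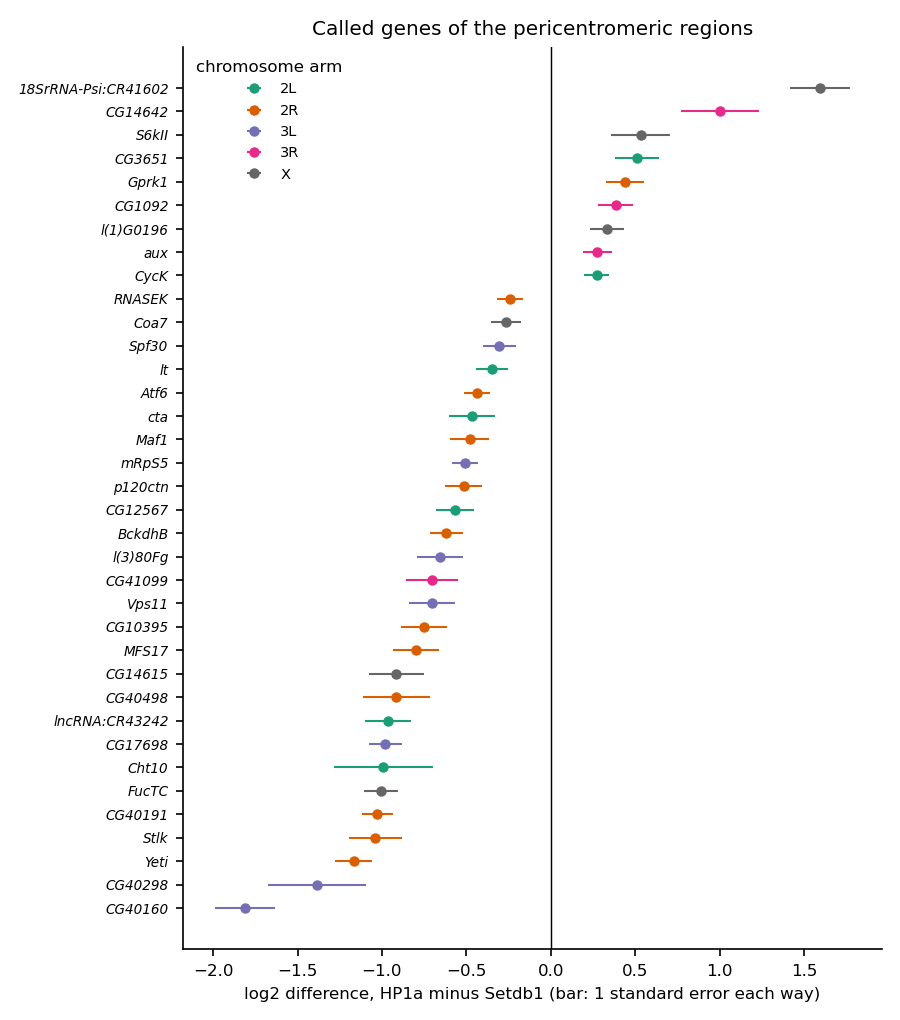
Log2 difference, HP1a minus Setdb1, of the 36 called pericentromeric genes, 1 row per gene, with bars of 1 SE each way and colours for the chromosome arm. Of these, 27 lie left of 0 and 9 right of it, and genes of 2R and 3L are nearly all on the left.

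Chromosome 4, which HP1a and Setdb1 both bind, gave few calls. Of 55 tested genes, 3 were higher (5.45%) and 1 lower (1.82%), against 8.44% and 10.0% over all genes. The median was 0.09. Without HP1a array C 6 were higher, and the median was 0.03 without HP1a array A or Setdb1 array C. Besides Zip102B, the higher genes were gw, a component of microRNA silencing, at 10.72, 10.63 and 10.43 against 10.03, 9.81 and 9.62 (0.77 ± 0.12, adjusted p = 3.15e-04), and Gyf (0.43 ± 0.14, adjusted p = 0.0747 with the block). The gw level in wildtype was 10.18, between the genotypes. ATPsynbeta, a subunit of the mitochondrial ATP synthase, was lower (-0.30, adjusted p = 0.0499, and 0.193 with the block). The mean level of chromosome 4 genes minus that of arm genes was 0.62, 0.44 and 0.44 on the HP1a arrays and 0.44, 0.34 and 0.30 on the Setdb1 arrays, with both genotypes above the wildtype arrays at 0.13 to 0.27.

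Gene length moved with the direction of the difference. In the shortest quintile of tested genes, up to 1301 bp, 82 genes were higher and 245 lower, and in the longest, from 8229 bp, 192 were higher and 61 lower. The median difference went from -0.06 in the shortest to 0.13 in the longest quintile. Relative to wildtype, the longest quintile had a median of 0.09 in HP1a mutants and -0.05 in Setdb1 mutants, and the shortest -0.19 and -0.12. The mean of the longest minus that of the shortest quintile was -0.40, -0.50 and -0.64 on HP1a arrays A to C and -0.56, -0.73 and -0.89 on Setdb1 arrays A to C, so the genotypes overlapped, and the HP1a array was the higher in each same-letter pair, by 0.16 to 0.25. The 3′ minus 5′ signal of the control transcripts also moved with genotype, as given above, and its part in the length pattern was not tested. In the longest quintile the genes called higher numbered 70 without HP1a array A, 87 without Setdb1 array B, 115 without Setdb1 array C and 219 with the block, and the median was 0.10 to 0.16 when any 1 array was left out.

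Some of the lists above differ in length as they differ in direction, and others do not. The median length was 22752 bp for the neuronal list, 5854 bp for Polycomb and Trithorax genes, 934 bp for gut proteases and 1148 bp for oxidative phosphorylation, against 2720 bp over all genes. Replication genes, at 2627 bp, and UDP-glycosyltransferases, at 1962 bp, were nearer to the length of all genes. The insulin, lipid and nutrient list, at 8017 bp, and the glycolysis list, at 4139 bp, were longer than all genes and had more members lower than higher. Pericentromeric genes had a median of 5841 bp. In the longest quintile 14 of 52 were lower (26.9%), compared with 2.96% of the other genes of that quintile, and their median difference was -0.13 against 0.14. In the fourth quintile the shares were 6.90% and 6.90%, in the third 26.3% and 11.1%, in the second 16.7% and 13.3% and in the shortest 15.4% and 14.9%.

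**Figure D5:**
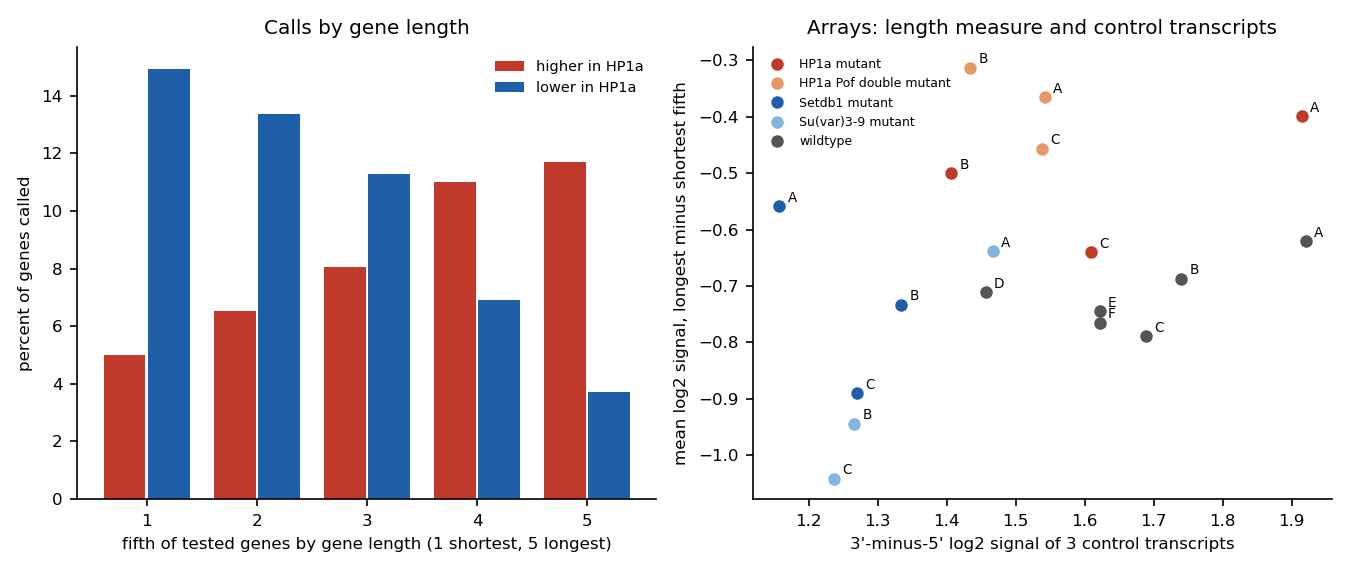
Left, percent of genes called higher (red) and lower (blue) in HP1a mutants by quintile of gene length, where the share called higher goes from 5.0% in the shortest to 11.7% in the longest quintile and the share called lower from 14.9% to 3.72%. Right, for each of the 18 arrays, the log2 signal of control transcripts at their 3′ minus their 5′ end (horizontal) and the mean log2 signal of the longest minus the shortest quintile (vertical), with colours for the genotypes and letters for the replicates; the HP1a arrays lie right of the Setdb1 arrays.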

How the data were processed

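Levels are the log2 values of the series' deposited table for Affymetrix Drosophila arrays, summarised by the authors with RMA per the submitters' processing notes, which put all 18 arrays on 1 scale; no scanner files were used here, and no source used here names the genome build of the array. Of 18952 probe sets, 13647 name 1 gene, 402 several and 4720 none, and 183 are controls; 13544 of those naming 1 gene matched the RefSeq Release 6 table, which gave symbols, chromosome, gene length and neighbours. The brightest probe set stood for each of 11982 genes; among named genes, another probe set of pio, Msp300, futsch, br and HP4 had the opposite sign. Genes with a log2 level of at least 6 on at least 3 arrays were tested (8211), in 1 limma 3.58.1 model (R 4.3.3) over 5 groups, which left 13 residual degrees of freedom, and p-values were adjusted by Benjamini-Hochberg over all tested genes; RMA and a signal near background compress folds. The labels call the replicates biological. Pericentromeric borders were set by hand for each arm.

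Residuals of same-letter HP1a and Setdb1 arrays correlated at 0.271 (A), 0.514 (B) and 0.623 (C), and of other pairs at -0.515 to 0.101, so the letters were taken to pair the samples, and the blocked value is given where it changes a call. No batch is given in the labels, which also do not say what a letter stands for. The pairing was thus inferred from these same data. Named genes were the targeted genes, the 15 largest called differences each way with non-overlapping arrays, up to 4 called members per list, up to 8 of chromosome 4, up to 6 of pericentromeric regions and called heterochromatin factors; exceptions are stated. The members, the 42 gene lists and the tests were chosen with earlier results of these data known. Alternatives were 15: the groups alone, the block, median centring, quantile normalization, no filter, a filter at 8, the mean of probe sets, array weights, trended robust variance and leaving out each of the 6 arrays. With 3 arrays against 3, an exact permutation test cannot go below 0.10, so single genes rest on the limma fit. The fit was tested on simulated data. The number of arrays limits the precision.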

Additional observations from a re-analysis of the deposited data

Results flagged for a closer look

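Among the 139 named genes, 8 had a wildtype array set apart from the other 5 by a gap that is large for the group's range, which chance gives in about 1 of 20 groups. At that rate, a count of this size among 139 genes is near what chance gives. No explanation was weighed. Wildtype array A was low for CG6839 at 11.77 (others 12.33 to 12.57), for Cpr49Ac at 10.77 (others 11.05 to 11.13) and for kappaTry at 9.94 (others 10.26 to 10.34), and high for Muc11A at 12.01 (others 11.65 to 11.78). Wildtype array F was high for Cht9 at 12.78 (others 12.60 to 12.65) and for sug at 10.38 (others 10.23 to 10.28). Array B was high for crq at 8.35 (others 8.10 to 8.12) and array D for mRpS31 at 9.59 (others 9.39 to 9.45). The wildtype arrays enter the variance estimate but not the difference between the mutants. The groups of 3 arrays were not examined in this way.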

How the results depend on the processing

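The count of 693 higher and 824 lower genes became 132 and 204 when the 2 genotypes were fitted without the other 12 arrays. The lower count became 457 with the letters as a replicate block, also fitted without those 12 arrays. Leaving out each array gave 344 to 730 higher and 475 to 840 lower genes; both lowest with Setdb1 array B left out, except that 367 higher genes without HP1a array A were also under the main count by more than 1.5 times. The other alternatives kept both counts within 1.5 times. Of the 1517 called genes, 828 were still called with the block, 334 with the 2 genotypes alone and 793 without Setdb1 array B, and none changed sign in any of these. Of 2058 values of named genes under alternatives, 1750 kept direction and side of the threshold, 308 lost the call and 0 reversed; 60 of 138 called named genes were called in every alternative run. With the block 38 of the genes named by the rule lost the call, as did betaTry, Jon74E, Jon65Aiii and lt, each given above with its adjusted p. Of 899 list, position and length medians, 13 moved by more than the spread between replicates. The cause of these changes was not tested. Fewer arrays also leave fewer degrees of freedom. The main fit takes 1 variance per gene over the 5 groups. Where the HP1a and Setdb1 arrays vary more than the others, its SE understates their spread. For Jon66Ci the SD was 0.59 in HP1a mutants, 0.56 in Setdb1 mutants and 0.06 in wildtype. Other genes went the other way, such as Obp56c with 0.14, 0.05 and 0.24.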

Other observations

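The EcKL family, genes whose products resemble an insect ecdysteroid kinase and which RefSeq marks by clade names among their synonyms, was looked at after 4 of its members appeared among the largest differences, so its counts are a description. Of 51 such genes 39 were tested: 8 were higher and 11 lower in HP1a mutants, and the median was -0.10. Over all tested genes 8.44% were higher and 10.0% lower. At least 2-fold higher were CG9259, CG16898, CG13658, CG31097 (1.43) and CG10560 (1.07), and at least 2-fold lower were CG11893 and CG31436 (-1.36). CG13658 and CG11893 are direct neighbours on 3R with differences of 3.14 and -3.69; both were high in wildtype, at 9.72 and 10.68, and each was low in a different mutant.

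Of the 188 genes that differed by at least 2-fold, 43 lay in 24 pairs of direct neighbours among the tested genes, of which 16 pairs moved the same way and 8 opposite ways. The 188 were among 8211 tested genes. How many such pairs arise by number alone, and how often other neighbours move the same way, was not computed. The counts are a description. Opposite pairs included Cpr49Ac and Cpr49Ad (-1.03 and 5.49) and cathD and CG30383 (-1.24 and 1.94). Pairs moving together included Alp9 and Alp10 (-1.80 and -1.72) and Ag5r and Ag5r2 (-1.53 and -1.38).

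Of 991 tested probe sets without a gene name, 122 were higher and 61 lower in HP1a mutants, and 26 and 8 of them by at least 2-fold. Named genes had the opposite balance, with more genes lower than higher. The identity of these probe sets is not known here.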
